A study of Mus musculus with 48 samples.

Results

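The mice described here received intrastriatal preformed fibrils (PFFs) of α-synuclein and then breathed either 11% or 21% O2. They were chosen by their labels, as all PFF mice with hypoxia or normoxia that are present in the batch-corrected count table. They comprised 10 PFF mice at 11% O2 and 12 at 21% O2, 22 of the 48 mice of the series.

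All mice were wild-type C57BL/6J males, so that no transgene or Cre line was involved, and both groups carried the same PFF injection. The substantia nigra (SN) was dissected as whole tissue and sequenced in bulk after poly(A) selection. In PFF mice it was collected 90 to 91 days after the injection, at an age of 30.1 to 30.3 weeks. The text deposited with the data states that mice breathed 21% O2 for 6 weeks and that some of them then breathed 11% O2 for a further 6 weeks, whereas the paper describes 11% O2 for all 12 weeks. The paper also describes a separate experiment with 11% O2 from 6 weeks on. It lists no monomer group at 11% O2 for that experiment, whereas this series has one. The question was how long breathing of 11% O2 changed gene expression in the SN of mice with PFF-induced α-synuclein pathology. The other mice of the series had received monomeric α-synuclein, and their response to 11% O2 (9 against 11 mice) is used below as a comparison. Of these, 1 mouse at 11% O2 was harvested later, 98 days after its injection and at 31.3 weeks.

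Cells sense low oxygen through the prolyl hydroxylases of the EGLN family, which mark the α subunits of the hypoxia-inducible factors (HIFs) for degradation only while oxygen is present. Stabilized HIF binds a short motif near its target genes and raises the transcription of genes for blood vessel growth, glucose breakdown and lactate export. In the adult brain, chronic low oxygen is known for capillary growth driven by vascular endothelial growth factor.

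Each of the 22 mice had between 12902996 and 17005846 counts on genes, with a median of 14675889.5 at 11% and 15548918 at 21% O2. The SN was collected in 3 harvest batches. These held 3, 3 and 4 PFF mice at 11% O2 and 4 mice each at 21% O2, so that each batch allowed the same comparison. Levels are given below as TPM, a measure that sums to the same total in every mouse, computed from the batch-corrected counts and scaled for gene length, and differences as log2 fold changes of 11% against 21% O2. Dopaminergic markers were present in every mouse. *Th*, tyrosine hydroxylase, ranged from 96.1 to 954 TPM at 21% and from 252 to 1027 TPM at 11% O2. *Slc6a3*, the dopamine transporter, ranged from 275 to 1932 and from 561 to 1473 TPM. In bulk tissue, fewer cells of a type and less RNA per cell cannot be told apart.

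Breathing 11% O2 changed a small set of genes in PFF mice, led by the angiogenic signal *Vegfa* and its receptor *Kdr*. Of 14839 genes tested, 86 were called (0.58%), of which 65 were higher (0.438%) and 21 lower (0.142%) at 11% O2. Calling a gene required a p under 0.05 after Benjamini–Hochberg adjustment from edgeR's quasi-likelihood test and an absolute log2 fold change above 0.25. At an unadjusted p under 0.05, 1588 genes passed (10.7%). The median log2 fold change was 0.51 over the genes called higher, -0.54 over those called lower and -0.00631 over all genes tested. A log2 fold change above 1 was reached by 5 of the 65 genes, and 1 of the 21 genes was below -1.

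**Figure D1:**
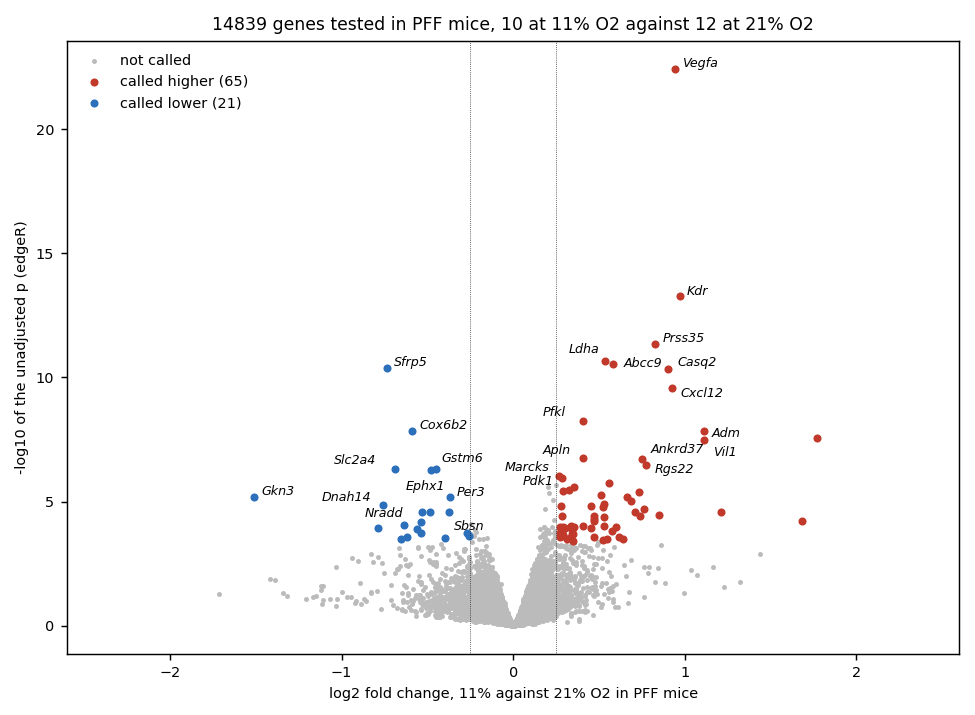
Log2 fold change of 11% against 21% O2 in PFF mice (horizontal) against -log10 of the unadjusted p (vertical) for 14839 genes, with 65 genes called higher in red, 21 called lower in blue and dotted lines at a log2 fold change of 0.25 in either direction. *Vegfa* and *Kdr* stand above all other genes, and the genes named by rule are labelled.

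The 2 hypoxia markers differed in all mice. *Vegfa* (ENSMUSG00000023951.17, chromosome 17 of GRCm38 from 46016993 to 46032369), the main ligand of vessel growth, was at 104 TPM in the lowest, 115 in the median and 136 in the highest mouse at 21% O2. At 11% O2 the corresponding values were 199.6, 216 and 262 TPM. *Kdr* (ENSMUSG00000062960.10, chromosome 5 from 75932827 to 75978458), the principal receptor of that ligand on endothelial cells, was at 3.96, 5.41 and 6.90 TPM at 21% and at 8.92, 10.7 and 13.4 TPM at 11% O2. For both genes every mouse at 11% O2 was above every mouse at 21% O2. The log2 fold change was 0.94 (SE 0.0482, adjusted p = 5.4e-19) for *Vegfa* and 0.97 (SE 0.0892, adjusted p = 4.0e-10) for *Kdr*. Within harvest batches 1, 2 and 3, *Vegfa* differed by 0.90, 1.08 and 0.88 and *Kdr* by 0.85, 1.16 and 0.95 on the log2 scale. An exact two-sided permutation of the oxygen labels within batches gave p = 1.17e-05 for either gene, which is the smallest that the 85750 arrangements allow.

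Such a complete separation was rare. In 11 of 14839 genes (0.0741%) every mouse at 11% O2 was above every mouse at 21% O2, and 10 of these were called. In 2 genes (0.0135%), *Sfrp5* and *Gstm6*, every mouse was below.

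**Figure D2:**
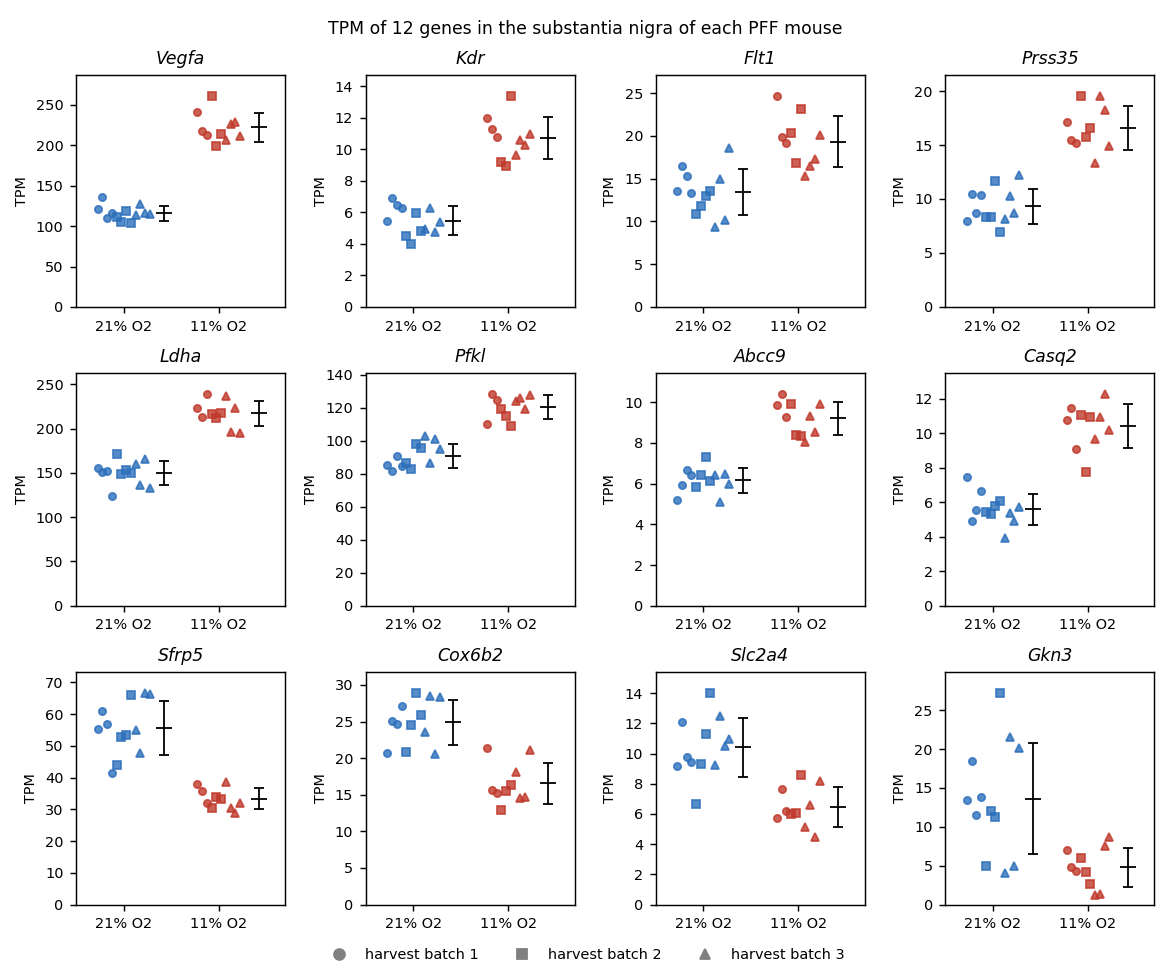
TPM (vertical, from 0) of 12 genes in each of 12 PFF mice at 21% O2 (blue) and 10 at 11% O2 (red), with symbols for the 3 harvest batches and the mean ± SD beside each group. The groups do not overlap for *Vegfa*, *Kdr*, *Prss35*, *Ldha*, *Pfkl*, *Abcc9*, *Casq2* and *Sfrp5*, whereas those of *Flt1*, *Cox6b2*, *Slc2a4* and *Gkn3* do.

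Among the genes that sense oxygen, none was called. The 10 HIF subunits and oxygen sensors had 5 genes above and 5 below 0 and a median of 0.0045. At an unadjusted p under 0.05, 4 of them passed (against 10.7% of all genes), and DESeq2 and limma also called none. *Egln1*, the major HIF prolyl hydroxylase, gave a log2 difference of 0.25 (SE 0.0451) with an adjusted p of 0.00134, but lay just under the fold threshold at 0.2468. Its levels were 66.7, 75.8 and 83.3 TPM at 21% and 79.3, 89.6 and 108 TPM at 11% O2, with overlap between the groups. *Hif1a*, the inducible HIF subunit that is controlled mainly at the protein level, was at 72.4 ± 4.73 TPM (SD, n = 12) at 21% and 71.5 ± 3.75 TPM (SD, n = 10) at 11% O2. *Hif3a* gave a log2 difference of -0.62 (SE 0.202 and adjusted p = 0.185), with values of -0.52, 0.0082 and -1.21 in the 3 batches.

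Of 15 angiogenic ligands tested, 4 rose (against 0.438% of all genes) and none fell, and the median of the list was 0.0726. Besides *Vegfa* these were *Adm*, *Cxcl12* and *Apln*. The members of this and the other lists were chosen with earlier results of these data known. The paper had also named *Vegfa*, *Adm* and *Cxcl12* as upregulated by hypoxia in these data. The shares of all genes set beside list counts are therefore a description and no test. *Adm* encodes adrenomedullin, a vasodilator peptide. It was at 2.15, 3.56 and 5.62 TPM in the lowest, median and highest mouse at 21% and at 4.97, 7.38 and 14.5 TPM at 11% O2, and 9 of the 10 mice lay above every mouse at 21% O2. *Cxcl12*, a chemokine of vessels and meninges, was at 10.5, 17.1 and 22.9 TPM at 21% and at 26.3, 31.8 and 40.5 TPM at 11% O2, without overlap. *Apln*, which encodes apelin, a peptide of growing vessels, was at 53.1, 60.4 and 71.3 TPM at 21% and at 72.8, 77.7 and 99.1 TPM at 11% O2, again without overlap. Their log2 fold changes were 1.11 (SE 0.161) for *Adm*, 0.92 (SE 0.113) for *Cxcl12* and 0.40 (SE 0.0652, adjusted p = 0.000185) for *Apln*. The other VEGF family ligands did not pass; these and the further list members without a call below were chosen for display after their values were seen. *Vegfb*, the most abundant of them by TPM, gave a log2 difference of 0.0337 (SE 0.0578), *Vegfc* one of 0.28 (SE 0.163) and *Pgf* one of -0.15 (SE 0.0873).

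Of 20 vascular receptors and tip cell genes, 4 rose (against 0.438% of all genes) and none fell. Above 0 were 17 (against 46.8% of all genes), with a median of 0.13. The 3 VEGF receptors were among those called. *Flt1*, which encodes VEGF receptor 1, was at 9.29, 13.5 and 18.6 TPM at 21% and at 15.4, 19.5 and 24.7 TPM at 11% O2. The groups overlapped, and 6 of 10 mice were above every mouse at 21% O2. This is a log2 fold change of 0.53 ± 0.107 (SE), with an adjusted p of 0.00499. *Flt4*, which encodes VEGF receptor 3, changed by 0.45 (SE 0.0932), and *Notch4*, an endothelial Notch receptor, by 0.47 (SE 0.106, adjusted p = 0.0165). With the 2 PFF mice described below added, on uncorrected counts, *Flt1* and *Flt4* were not called (adjusted p = 0.0510 and 0.0941). Over 13 alternatives with all batches, *Kdr* and *Notch4* were called in 13 and *Flt1* and *Flt4* in 11. The angiopoietin receptor genes *Tek* (0.33, SE 0.121, adjusted p = 0.261) and *Tie1* (0.26, SE 0.125, adjusted p = 0.452) were not called. The adrenomedullin receptor gene *Calcrl* gave a log2 difference of 0.14 (SE 0.102), and *Cxcr4*, the receptor gene for CXCL12, one of 0.15 (SE 0.140).

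Endothelial identity genes were mostly above 0 but rarely called. Of 23 endothelial and blood–brain barrier genes, 22 were above 0, with a median of 0.23, whereas 46.8% of all genes tested were above 0. *Cldn5*, the main claudin of brain endothelial tight junctions, was the 1 gene called by edgeR (0.47, SE 0.103, adjusted p = 0.0114), and DESeq2 called 2 genes of the list. *Cldn5* was called in 11 of the 13 alternatives, and not with the 2 mice added (adjusted p = 0.0654). It was at 61.0, 87.4 and 120 TPM at 21% and at 97.1, 119.6 and 132 TPM at 11% O2. Of the mice at 11% O2, 5 of 10 were above every mouse at 21% O2. The platelet and endothelial adhesion gene *Pecam1* (0.36, SE 0.133) and *Emcn* (0.36, SE 0.0999, adjusted p = 0.0696) were not called. The medians of the list were 0.20, 0.32 and 0.17 within batches 1, 2 and 3. The summed level of the 23 genes ranged from 517 to 807 TPM at 21% and from 702 to 921 TPM at 11% O2.

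All 11 pericyte genes were above 0 (against 46.8% of all genes), with a median of 0.18, and 3 rose (against 0.438%). *Abcc9* encodes the sulfonylurea receptor subunit of the vascular potassium channel whose pore is encoded by *Kcnj8*, and both were called. *Abcc9* was at 5.12, 6.26 and 7.29 TPM at 21% and at 8.04, 9.29 and 10.4 TPM at 11% O2, without overlap. *Kcnj8* was at 6.93, 8.81 and 10.2 TPM at 21% and at 10.01, 11.3 and 12.6 TPM at 11% O2, and 7 of 10 mice were above every mouse at 21% O2. The log2 fold changes were 0.58 (SE 0.0658, adjusted p = 8.4e-08) for *Abcc9* and 0.34 (SE 0.0789, adjusted p = 0.0231) for *Kcnj8*. *Higd1b*, a pericyte gene of the hypoxia-inducible domain family, changed by 0.53 (SE 0.117, adjusted p = 0.0118). *Abcc9* was called in 13 of the 13 alternatives, *Higd1b* in 11 and *Kcnj8* in 9. With the 2 mice added, *Higd1b* (adjusted p = 0.0865) and *Kcnj8* (adjusted p = 0.208) were not called. The canonical pericyte receptor gene *Pdgfrb*, in contrast, gave a log2 difference of 0.13 (SE 0.0695 and adjusted p = 0.525), and *Rgs5* one of 0.49 (SE 0.132, adjusted p = 0.0598).

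Other vessel-related lists held no call by edgeR, DESeq2 or limma. The 6 arterial smooth muscle genes had a median of -0.19 (1 gene at an unadjusted p under 0.05), the 14 basement membrane genes one of 0.0568 (2 genes) and the 10 fibroblast and meningeal genes one of -0.0499 (0 genes). *Col4a1*, a collagen of the basement membrane, gave a log2 difference of 0.18 (SE 0.0554 and adjusted p = 0.150) and *Nid2* one of 0.43 (SE 0.149, adjusted p = 0.2197). *Lmod1* and *Myh11* of smooth muscle had values of -0.29 (SE 0.142) and -0.38 (SE 0.331), and *Lum* and *Slc22a6* of fibroblasts values of -0.48 (SE 0.370) and -0.50 (SE 0.478).

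The haemoglobin transcripts had higher values at 11% O2 without passing the test. The summed level of 4 haemoglobin genes ranged from 382.4 to 2396 TPM with a median of 1319 at 21%, and from 1100 to 4945 TPM with a median of 1851 at 11% O2. The groups overlapped. The 4 genes had log2 differences between 0.76 and 0.82, and none was called, although each had an unadjusted p under 0.05. *Hbb-bs* gave a log2 difference of 0.76 (SE 0.253 and adjusted p = 0.189) and *Hba-a1* one of 0.79 (SE 0.264, adjusted p = 0.1898). The haemoglobin genes are near-identical copies, so that the share of reads each received is uncertain. Whether blood in the tissue contributed to the vascular values was not tested.

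The genes of glucose breakdown differed by small amounts. Of 20 genes of glucose uptake and glycolysis, 17 were above 0 (against 46.8% of all genes), with a median of 0.12. At the adjusted p alone 5 passed, all higher, but 1 was beyond the fold threshold. This was *Pfkl*, the liver-type phosphofructokinase subunit, at 81.8, 88.7 and 103 TPM at 21% and at 109, 122 and 128 TPM at 11% O2, without overlap (log2 fold change 0.40, SE 0.0560, adjusted p = 9.6e-06). The other phosphofructokinase genes differed from it in size, with 0.19 (SE 0.0393, adjusted p = 0.00721) for *Pfkp* and 0.0161 (SE 0.0491) for the muscle-type *Pfkm*, which is the most abundant of the 3 by TPM. The enolase gene *Eno1* had 0.20 (SE 0.0371, adjusted p = 0.00149), and its neuronal counterpart *Eno2* 0.0458 (SE 0.0452). *Slc2a1*, the glucose transporter of the blood–brain barrier and astrocytes, had 0.17 (SE 0.0752, adjusted p = 0.411).

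Single genes of lactate handling rose, whereas the median of that list was near 0. *Ldha*, which encodes the lactate dehydrogenase subunit favoured in lactate production, was at 124.2, 151.5 and 171.2 TPM in the lowest, median and highest mouse at 21% and at 195.1, 216.8 and 238.7 TPM at 11% O2, without overlap. *Ldhb*, the subunit favoured in lactate use, was at 1752 ± 129 TPM (SD, n = 12) and 1734 ± 91.3 TPM (SD, n = 10). Their log2 fold changes were 0.54 (SE 0.0599, adjusted p = 7.8e-08) and -0.0141 (SE 0.0502, adjusted p = 0.946). *Slc16a3*, the lactate exporter MCT4, was at 3.33, 6.08 and 11.1 TPM at 21% and at 8.32, 10.2 and 14.9 TPM at 11% O2, and only 2 of 10 mice were above every mouse at 21% O2 (0.74, SE 0.161, adjusted p = 0.0110). *Pdk1*, a kinase that keeps pyruvate out of mitochondria, changed by 0.29 (SE 0.0505, adjusted p = 0.000769), while *Pdk2*, *Pdk3* and *Pdk4* had values of 0.0442, -0.0302 and -0.12, none of them called. In all, 3 of 16 genes of lactate handling and pyruvate entry rose (against 0.438% of all genes) and none fell, with a median of -0.0222. *Bsg*, the chaperone of lactate transporters, passed the adjusted p (0.00236) at 0.21 on the log2 scale (SE 0.0396), under the fold threshold.

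Of 22 other HIF targets, 2 rose and 18 were above 0, with a median of 0.10. Over all genes tested, 0.438% were called higher and 46.8% were above 0. *Ankrd37* was at 7.05, 9.59 and 10.8 TPM at 21% and at 8.25, 15.2 and 22.1 TPM at 11% O2 (0.75, SE 0.121, adjusted p = 0.000185). *Ndufa4l2*, which encodes a HIF-induced relative of a respiratory chain subunit, was at 2.75, 5.36 and 7.63 TPM at 21% and at 7.14, 8.43 and 10.5 TPM at 11% O2 (0.66, SE 0.130, adjusted p = 0.00304). Its counts were low, between 11 and 51 reads per mouse, and it was called in 11 of the 13 alternatives. Mitophagy genes of this list had values of 0.11 (SE 0.0538) for *Bnip3* and 0.0853 (SE 0.0457) for *Bnip3l*, neither of them called.

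**Figure D3:**
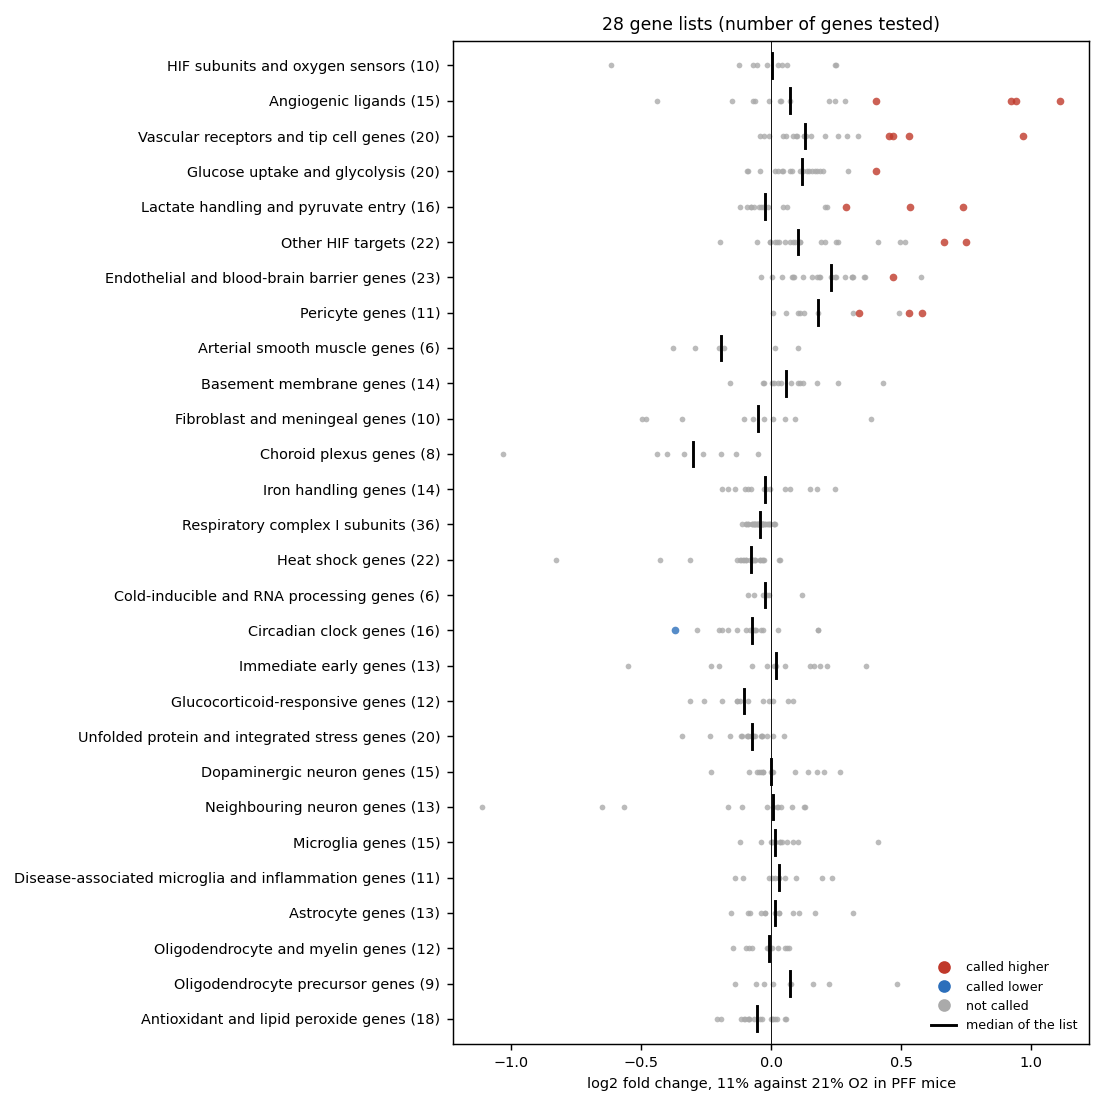
Log2 fold change of 11% against 21% O2 in PFF mice (horizontal) for each tested gene of 28 lists (rows, with the number tested), in red where called higher, blue where called lower and grey where not called, and a black line at the list's median. The calls lie in the ligand, receptor, glycolysis, lactate, HIF target, endothelial, pericyte and clock lists.

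Sequences upstream of start sites were taken from RefSeq on GRCm38.p6 to show where the core of the HIF motif lies in 5 of the genes called higher. The motif was searched as ACGTG or GCGTG on either strand, from 250 bases before to 50 bases after each start. Its first form overlaps with the E-box CACGTG, which other factors bind. Each stretch below is written along the strand of the gene, with motif letters in capitals.
*Kdr*, chr5:75978528-75978556, minus strand, motif 89 bases before the start: atccagtgggggGCGTGgccggacgcagg
*Adm*, chr7:110627591-110627619, plus strand, motif 54 bases before the start: ggcaaatctgacCACGCccaccgtccgcc
*Ldha*, chr7:46845647-46845675, plus strand, motif 145 bases before the start, within an E-box: ggtgtcgcagcaCACGTGgagccactctt
*Pfkl*, chr10:78009890-78009918, minus strand, motif 99 bases before the start: atttgtagactgGCGTGcgctccgccttt
*Pdk1*, chr2:71873134-71873162, plus strand, motif 78 bases before the start: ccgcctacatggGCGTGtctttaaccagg

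The share of promoters with the motif was close to that of all genes for the genes called higher. Promoters were matched for 50 of these 65 genes, and 37 of their 61 promoters held it (60.7%), against 59.4% of the 14960 promoters of all genes tested. The E-box was in 8.20% and 9.37% of them. For the genes called lower, 4 of 23 promoters held the motif (17.4%). In the 250 bases before the start alone, the shares were 54.1% for the higher, 13.0% for the lower and 53.2% for all genes. No match was found there in *Abcc9*, *Cxcl12*, *Vil1* and *Apln*, and none in the distal of the 2 *Vegfa* promoters or in the second, downstream promoter of *Pdk1*. These counts concern letters in a short window only.

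Several of the strongest genes belong to no hypoxia list. *Prss35*, which encodes a serine protease-like protein, was at 6.92, 8.73 and 12.2 TPM at 21% and at 13.3, 16.2 and 19.6 TPM at 11% O2, without overlap (0.83, SE 0.0879, adjusted p = 2.2e-08). *Casq2*, a calsequestrin that stores calcium, was at 3.90, 5.48 and 7.46 TPM at 21% and at 7.78, 10.9 and 12.3 TPM at 11% O2, also without overlap (0.90, SE 0.104, adjusted p = 1.0e-07). *Vil1*, which encodes the actin-binding protein villin, changed by 1.11 (SE 0.166) at a level of 3 to 28 reads per mouse, and *Rgs22*, a regulator of G-protein signalling, by 0.77 (SE 0.129). *Marcks*, a substrate of protein kinase C, changed by 0.26 (SE 0.0464, adjusted p = 0.000715), near the fold threshold, with 9 of 10 mice above every mouse at 21% O2. Without replicate 3 at 11% O2 its log2 fold change was 0.25 (0.2453), under that threshold.

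The remaining 42 genes called higher had log2 fold changes between 0.27 and 1.77. Chosen after their values were seen, these included genes of vessels and matrix, such as *Mmp14*, a membrane metalloproteinase (0.56, SE 0.101), *Loxl1*, a lysyl oxidase of elastic fibres (0.68, SE 0.136), and *Pcdh12*, an endothelial protocadherin (1.77, SE 0.263). *Pcdh12* had between 0 and 19 reads per mouse, and its size depends on those few reads. They also included *Smad7*, an inhibitor of TGF-β signalling (0.35, SE 0.0650), and *Cited2*, an inhibitor of HIF transactivation (0.30, SE 0.0714).

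The genes that fell were of other kinds. *Sfrp5*, a secreted antagonist of Wnt ligands, was at 41.5, 55.1 and 66.6 TPM in the lowest, median and highest mouse at 21% and at 28.9, 32.8 and 38.6 TPM at 11% O2, without overlap (-0.73, SE 0.0842, adjusted p = 1.0e-07). *Gstm6*, a glutathione transferase, was at 23.0, 27.7 and 31.0 TPM at 21% and at 16.95, 19.9 and 22.8 TPM at 11% O2, also without overlap (-0.45, SE 0.0758, adjusted p = 0.000416). *Cox6b2*, an alternative subunit of cytochrome c oxidase, changed by -0.59 (SE 0.0847), with 8 of 10 mice below every mouse at 21% O2. *Ephx1*, the microsomal epoxide hydrolase, was at 49.2, 59.4 and 75.2 TPM at 21% and at 37.8, 42.1 and 51.7 TPM at 11% O2 (-0.48, SE 0.0821, adjusted p = 0.000425). With the 2 PFF mice described below added, edgeR called neither *Cox6b2* (-0.29, adjusted p = 0.558) nor *Ephx1* (-0.28, adjusted p = 0.428).

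The insulin-responsive glucose transporter gene *Slc2a4* fell from 6.64, 10.1 and 14.0 TPM at 21% to 4.48, 6.11 and 8.61 TPM at 11% O2 (-0.69, SE 0.117, adjusted p = 0.000416). *Gkn3*, a gastrokine known as an arterial endothelial marker in mouse brain, was at 4.06, 12.8 and 27.2 TPM at 21% and at 1.24, 4.57 and 8.71 TPM at 11% O2 (-1.51, SE 0.294, adjusted p = 0.00304). Its groups overlapped, and 3 of 10 mice were below every mouse at 21% O2. *Per3*, a period gene of the circadian clock, changed by -0.37 (SE 0.0721, adjusted p = 0.00304), and was the only gene called among 16 clock genes, whose median was -0.0738. With these 2 mice added, *Slc2a4*, *Gkn3* and *Per3* were not called either, with adjusted p of 0.0712, 0.0936 and 0.124. The axonemal dynein gene *Dnah14* (-0.76, SE 0.155), *Nradd* (-0.53, SE 0.113; called in 10 of the 13 alternatives) and *Sbsn* (-0.38, SE 0.0798) completed the named genes that fell. The remaining 11 lay between -0.79 and -0.26.

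Most genes called had the same direction in each harvest batch. Of 62 genes called higher and measured in each batch, 61 were higher in all 3, *Eml1* being the exception. All 21 genes called lower were lower in each. Among all genes measured in each batch, 32.1% had the sign of their value over all batches in each of the 3. This count reuses the mice that made the calls, so genes called with a batch left out were also looked up in that batch, which shares no mouse with them. Without batch 1, 22 genes were called higher, and 20 of them were higher in batch 1, 17 with an unadjusted p under 0.05. Of all genes, 49.8% were higher there and 7.71% with such a p. Without batch 2, 26 of 30 were higher in batch 2, 20 of them with such a p, against 48.9% and 5.16% of all genes. Without batch 3 it was 26 of 27 in batch 3, 18 with such a p, against 50.2% and 3.01%. For genes called lower, 9 of 9, 14 of 18 and 6 of 7 were lower in the batch left out, against 50.2%, 51.1% and 49.8% of all genes. With an unadjusted p under 0.05 it was 6, 7 and 5 of them, against 4.85%, 4.33% and 2.04% of all genes.

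**Figure D4:**
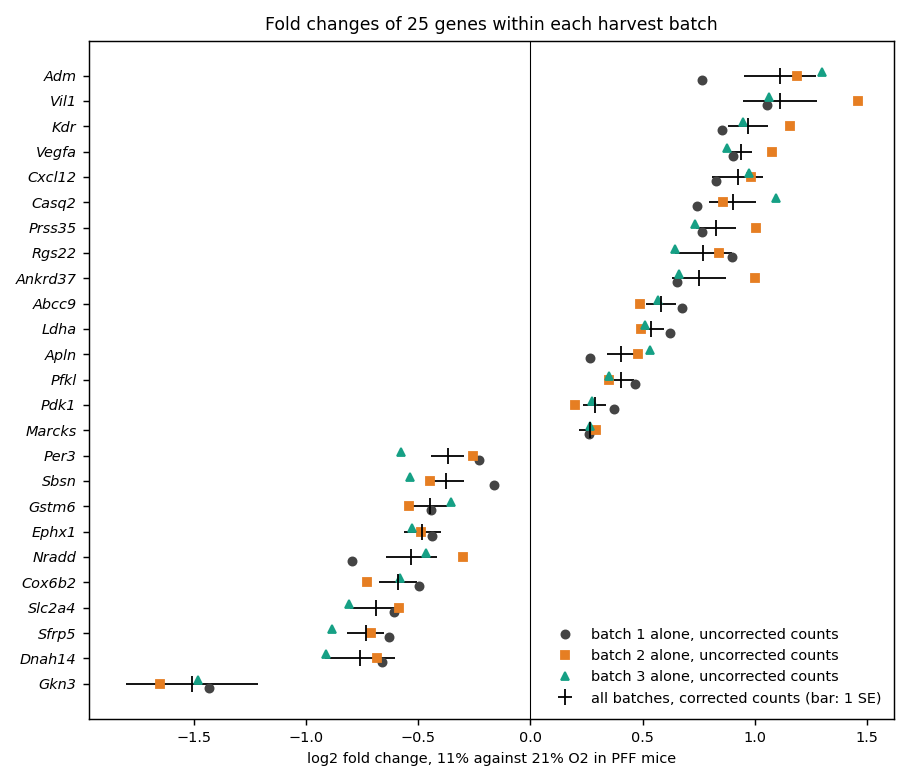
Log2 fold change of 11% against 21% O2 in PFF mice (horizontal) for the 15 genes called higher and 10 called lower with the smallest p, from all batches (black, with 1 SE) and from each harvest batch alone before correction (symbols). All 3 batches lie on the same side of 0 for each gene, as the rule that named these genes requires.

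Of the lists without a call, some had medians of different sign between batches and others did not. Of 36 respiratory complex I subunits, 33 were below 0 over all batches (against 53.2% of all genes), with a median of -0.0442. None was called by edgeR, DESeq2 or limma, and 3 had an unadjusted p under 0.05 (against 10.7% of all genes). Within batches 1, 2 and 3, 0, 25 and 2 of the subunits were above 0. Of 13 astrocyte genes, 1, 12 and 5 were above 0 in the 3 batches, and of 15 microglia genes 2, 15 and 7. The medians of 22 heat shock genes were -0.15, -0.0380 and -0.0162 in the 3 batches, and those of 20 unfolded protein and integrated stress genes were -0.11, -0.0216 and -0.0498. The antioxidant and iron handling lists also had a median below 0 in each batch. In contrast, of 23 endothelial genes 21, 23 and 19 were above 0 in the 3 batches, and of 11 pericyte genes 10, 8 and 10.

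Dopaminergic neuron genes were not called by any of the 3 tools, and none of the 15 passed an unadjusted p under 0.05. Their median was -0.0008, and within batches it was 0.45, -0.31 and 0.0879. *Th* was at 584 ± 272 TPM (SD, n = 12) at 21% and 623 ± 260 TPM (SD, n = 10) at 11% O2, which is 0.0911 on the log2 scale with an SE of 0.322 (adjusted p = 0.946). *Slc18a2*, the vesicular monoamine transporter, had -0.0872 (SE 0.317). The members nearest to a call were *Aldh1a1*, which marks a vulnerable set of these neurons (0.17, SE 0.0932), and *En1* (0.26, SE 0.172). Marker genes of neighbouring nuclei and of the choroid plexus varied widely between mice, and their part in these values was not tested. *Slc17a6*, the glutamate transporter gene of nearby thalamic and subthalamic neurons, ranged from 0.0434 to 119.6 TPM at 21% and from 0.0440 to 69.9 TPM at 11% O2 (-1.11, SE 0.721). The choroid plexus genes summed to between 18.4 and 338 TPM at 21% and between 16.6 and 75.3 TPM at 11% O2, and none of the 8 tested was called by the 3 tools (1 at an unadjusted p under 0.05). The 13 genes of neighbouring neurons tested had a median of 0.0086 and were not called either (0 at such a p).

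Microglia, astrocyte, oligodendrocyte and iron genes were likewise without a call by the 3 tools. Over all genes tested, 10.7% had an unadjusted p under 0.05. The kinase gene *Pink1*, known from inherited Parkinson disease, gave 0.0929 (SE 0.0447, adjusted p = 0.446). Microglia genes had a median of 0.0139 (1 of 15 at an unadjusted p under 0.05), with *Fcrls* at 0.41 (SE 0.136, adjusted p = 0.187) and *Csf1r* at 0.10 (SE 0.101). Disease-associated microglia and inflammation genes had a median of 0.0286 (0 of 11), with *Gpnmb* at 0.19 (SE 0.201) and *Cd68* at 0.0946 (SE 0.120). Astrocyte genes had a median of 0.0130 (1 of 13), with *Aldh1l1* at -0.15 (SE 0.0591) and *Slc1a3* at 0.0846 (SE 0.0430). Myelin genes had a median of -0.0103 (1 of 12), with *Mal* at -0.15 (SE 0.0684) and *Aspa* at -0.0976 (SE 0.0746). Oligodendrocyte precursor genes had a median of 0.0716 (2 of 9), with *Olig1* at 0.22 (SE 0.0741, adjusted p = 0.1901) and *Bmp4* at 0.48 (SE 0.223). Iron handling genes had a median of -0.0255 (4 of 14). Nearest to a call were *Tfrc* at 0.18 (unadjusted p = 0.0127) and *Slc40a1* at 0.24 (unadjusted p = 0.0170), both higher at 11% O2.

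Stress lists leaned below 0 without a call. Of 22 heat shock genes, 20 were below 0 (median -0.0772, 7 at an unadjusted p under 0.05), with *Dnaja4* at -0.13 (SE 0.0529) and *Hsp90aa1* at -0.11 (SE 0.0459). Of 20 genes of the unfolded protein and integrated stress responses, 18 were below 0 (median -0.0736, 2 at such a p), with *Herpud1* at -0.12 (SE 0.0512). Of 18 antioxidant and lipid peroxide genes, 12 were below 0 (median -0.0541, 7 at such a p), with *Prdx6*, a peroxiredoxin, at -0.21 (SE 0.0746, adjusted p = 0.256) and *Nqo1* at -0.19 (SE 0.0753). Among all genes tested, 53.2% were below 0 and 10.7% had an unadjusted p under 0.05. Within batches 1, 2 and 3, 1, 9 and 10 of the 22 heat shock genes were above 0. Glucocorticoid-responsive genes (median -0.10, 0 of 12 at such a p), immediate early genes (median 0.0200, 1 of 13) and cold-inducible and RNA processing genes (median -0.0256, 1 of 6) were not called by edgeR, DESeq2 or limma either.

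The same genes were then read in mice that had received monomer. These share no mouse with the PFF groups, but monomer mice at 11% and 21% O2 met only in batch 1. In monomer mice 7.23% of all genes were called, that is 4.68% higher and 2.55% lower at 11% O2. Of the 65 genes called higher in PFF mice, 41 were called higher in monomer mice too, 3 were called lower and 21 were not called. Of the 65, 52 were above 0, against 47.9% of all genes. Of the 21 genes called lower, 5 were called lower in monomer mice, 1 was called higher and 15 were not called, and 15 were below 0, against 52.1% of all genes. The median response of the genes called lower was -0.54 in PFF and -0.11 in monomer mice, and that of the genes called higher 0.51 and 0.43. Among lists chosen after their values were seen, 18 of 23 endothelial genes (median 0.49) and 8 of 11 pericyte genes (median 0.52) were called higher in monomer mice. Of 22 heat shock genes, 11 were called lower there (median -0.25). The difference of response was called for 0, 2 and 7 genes of these lists. Of 15 dopaminergic neuron genes, 0 were called in monomer mice. The PFF comparison chose the 86 genes, but the monomer mice entered the same fit and its filter, scaling and estimates of spread. The monomer values are thus not wholly apart from that choice. With only the 22 PFF mice fitted, 88 genes were called, 72 of them among the 86.

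The difference of response was not called for *Vegfa*, *Kdr*, *Ldha*, *Abcc9*, *Pfkl* and *Cxcl12*. For *Vegfa* the PFF response exceeded that of monomer mice by 0.0490 (SE 0.0699, adjusted p = 0.798 for the difference), for *Ldha* by 0.0596 (SE 0.0871, adjusted p = 0.804), for *Abcc9* it was -0.0335 (SE 0.0951, adjusted p = 0.914) and for *Pfkl* 0.0253 (SE 0.0814, adjusted p = 0.925). For *Kdr* it was -0.18 (SE 0.129, adjusted p = 0.546), from 0.97 in PFF and 1.15 in monomer mice. For *Cxcl12* it was -0.43 (SE 0.165, unadjusted p = 0.0116, adjusted p = 0.163), from 0.92 and 1.36. A p above the threshold does not show that the responses were equal. The difference of response was called for 318 genes (2.14%), and 17 of the 86 genes were among them. When all 48 mice were fitted with a batch covariate, it was called for 1.03% of the genes tested, and in batch 1 alone for 0.0745%.

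The 17 genes were of mixed kinds. Of these, 11 were higher at 11% O2 in PFF mice and more positive there, and 6 were lower and more negative. *Gnas*, the stimulatory G-protein subunit, changed by 0.34 (SE 0.0816) in PFF and by -0.39 (SE 0.0861) in monomer mice, and *Hnrnpab*, an RNA-binding protein, by 0.29 (SE 0.0624) and -0.28 (SE 0.0659). Both were named after their values were seen. In batch 1 alone the difference was 0.8995 for *Gnas* (adjusted p = 0.00970) and 0.67 for *Hnrnpab* (adjusted p = 0.0226). Of the 17, only these and *Pnrc1* (0.54, adjusted p = 0.0425) passed the adjusted p in batch 1 alone. All 17 had the same sign of the difference in batch 1 alone, as had 314 of the 316 genes with a called difference measured there, but these mice are part of the fit that made the calls. *Slc2a4* was at -0.69 in PFF and at -0.0120 in monomer mice (difference -0.68, adjusted p = 0.0214), and in batch 1 alone the difference was -0.49 (unadjusted p = 0.151). *Marcks* was at 0.26 and -0.0295 (difference 0.29, adjusted p = 0.0109). For *Dnah14* the difference was -0.80 over all batches and -0.17 in batch 1 alone (unadjusted p = 0.651), and for *Sbsn* it was -0.58 and -0.37 (unadjusted p = 0.0390).

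**Figure D5:**
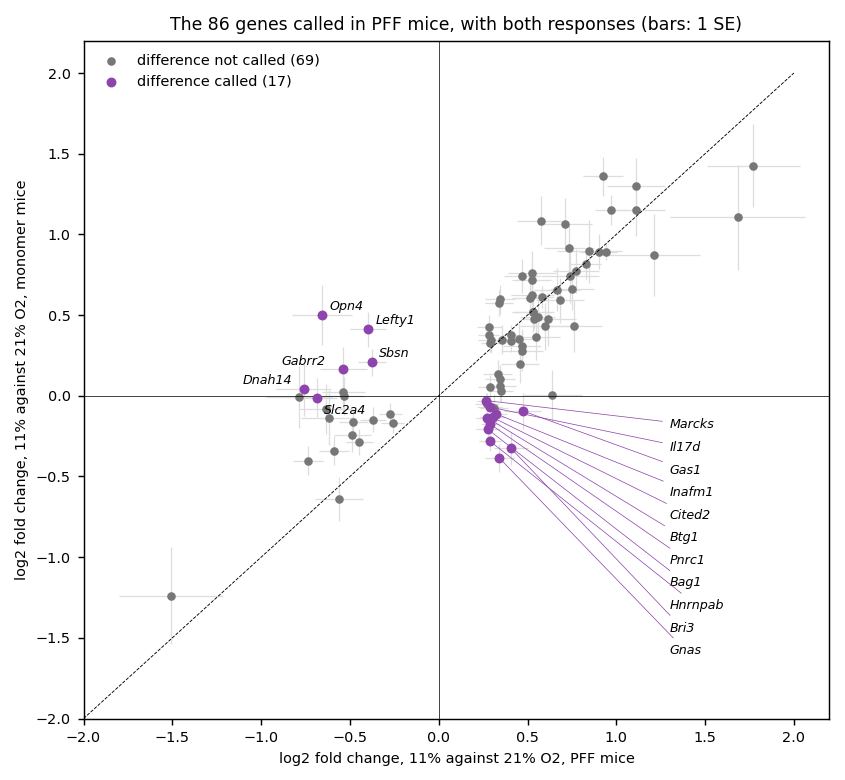
Log2 fold change of 11% against 21% O2 in PFF mice (horizontal) and in monomer mice (vertical) for the 86 genes called in PFF mice, with 1 SE in each direction and the line of equal response dashed. The difference of response was called for 17 genes (purple, named), and 69 were not called (grey).

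The 5 genes with the smallest p for the difference did not pass the call in PFF mice. The log2 fold change of *Ccdc117* was 0.0244 (SE 0.0694) in PFF and -0.81 in monomer mice, and that of the heat shock gene *Dnajb1* -0.0986 (SE 0.0717) and -0.87. *Vapa*, an ER contact protein, was at 0.21 (SE 0.0499, adjusted p = 0.0306) and -0.30, *Josd1* at 0.0447 (SE 0.0488) and -0.41, and *Lrrc29* at -0.28 (SE 0.0992) and 0.66. In batch 1 alone the difference had an adjusted p of 0.00970 for *Vapa*, 0.0606 for *Josd1*, 0.197 for *Ccdc117* and 0.521 for *Dnajb1* and *Lrrc29*. Outside batch 1 the batch and the oxygen level of monomer mice cannot be told apart.

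The 2 remaining PFF mice at 11% O2, replicates 2 and 5 by their labels, had been left out of the corrected table by the authors. Replicate 2 had 3134594 counts, and its uncorrected *Vegfa* level was 109 TPM, within the 103.5 to 135.9 TPM of the corrected values at 21% O2. Its *Hbb-bs* level was 9807 TPM, against 154.7 to 853.4 TPM in the same corrected values. The uncorrected levels cover 55385 genes and the corrected ones 19601 protein-coding genes, so that these ranges are only a rough guide. Of the 65 genes called higher, 39 in replicate 2 were above the mean of normoxic mice of its batch, and of the 21 called lower 19 were below it. Replicate 5 had 13265802 counts, with uncorrected levels of 192.5 TPM for *Vegfa* and 20.2 TPM for *Kdr*. In it 62 of the 65 genes called higher were above the mean of normoxic mice of its batch, but only 10 of the 21 called lower were below it. The share of all genes above or below that mean was not computed for either mouse. These counts therefore do not separate the called genes from a shift of many genes in the mouse. With both mice added, on uncorrected counts with batch as a covariate, 58 genes were called, 49 higher and 9 lower, and 46 of these were among the 86. The same fit without the 2 mice called 98 genes, 75 higher and 23 lower.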

How the data were processed

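RNA from the SN was sequenced in bulk, and the authors aligned reads to mm10 with STAR 2.7.5a and GENCODE vM24, removed duplicates with Picard 2.21.9 and counted primary alignments per gene with featureCounts 2.0.1, from a library kit that does not mark strand. The authors deposited raw counts of 48 mice and 55385 genes, and counts of 42 mice and 19601 protein-coding genes corrected for harvest batch with ComBat-seq, which can make p-values too small. The authors also deposited TPM values for both tables. Here, the corrected counts of 4 groups (PFF or monomer, 11% or 21% O2) were fitted in 1 model with edgeR 4.0.16 in R 4.3.3 (TMM, filterByExpr, quasi-likelihood test), and p-values were adjusted over all genes. Totals of the 22 PFF mice lay between 12902996 and 17005846 counts, which sets the precision of genes with few reads. Standard errors were derived from the F statistic. The fit was tested on simulated data with known changes. Each harvest batch was fitted alone on uncorrected counts. No library pair had counts within sampling noise. Which side of the SN was used is not given in the sources used here. Alternatives were DESeq2 1.42.0, limma 3.58.1 on log2 of TPM plus 1 or 0.1, other filters, scalings, samples and batch terms, the replicate number as a block, and each mouse left out. The fits without single mice, the fit of all 24 PFF mice and the fit of genes that are not protein-coding were added after seeing the data.

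Named genes were those called with the same sign in 3 batches (the 15 higher and 10 lower with the smallest p), *Vegfa*, *Kdr*, the called members of each of 30 lists or the 2 with the smallest p where none was called, and the 5 with the smallest p for the difference of response. Other genes were chosen after their values were seen. Members and lists were chosen with earlier results of these data known. As lists, 2 of the 30 are not reported here.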

Additional observations from a re-analysis of the deposited data

Results flagged for a closer look

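Among 82 named genes, single mice of the 10 PFF mice at 11% O2 stood apart from the rest by Dixon's criterion, which chance meets in about 1 in 20 groups. Replicate 8 was the highest for *Hbb-bs* (1750 TPM, next 881), *Hba-a1* (1598 TPM, next 757), *Fcrls* (113 TPM, next 83.3) and *Bmp4* (13.8 TPM, next 6.02). Replicate 6 was the highest for *Adm* (14.5 TPM, next 9.97) and *Hif3a* (13.5 TPM, next 7.28). Replicate 9 was the highest for *Slc16a3* (14.9 TPM, next 11.7) and replicate 1 for *Rsrp1* (571 TPM, next 516), whereas replicate 3 was the lowest for *Col4a1* (15.1 TPM, next 18.2). *Adm* remained called in every fit with 1 mouse left out.

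The edgeR interaction called a difference of O2 response between PFF and monomer mice for 13 of 82 named genes (against 2.14% of all genes). Given as the PFF minus the monomer response on the log2 scale with the adjusted p, it was 0.83 for *Ccdc117* (2.07e-06), 0.77 for *Dnajb1* (2.3e-05), 0.50 for *Vapa* (8.42e-05), 0.46 for *Josd1* (0.000222) and -0.94 for *Lrrc29* (0.000222). It was 0.29 for *Marcks* (0.0109), -0.68 for *Slc2a4* (0.0214), -0.80 for *Dnah14* (0.0433) and -0.58 for *Sbsn* (0.0037). It was -0.37 for *Tfrc* (0.0345), 0.33 for *Dnaja4* (0.0119), -0.31 for *Rbm3* (0.0282) and 0.34 for *Tsc22d3* (0.043), none of which was called in PFF mice. In batch 1 alone, batch and oxygen level of monomer mice can be told apart. There only *Vapa* of the 13 passed the adjusted p (0.60, adjusted p = 0.00970). Except for *Vapa* and *Marcks* (0.31, adjusted p = 0.388), all of the differences were smaller in size there. They were 0.48 for *Dnajb1* (adjusted p = 0.521), -0.68 for *Lrrc29* (adjusted p = 0.521) and -0.49 for *Slc2a4* (adjusted p = 0.585). For *Dnah14* (-0.17, adjusted p = 0.873), *Tfrc* (-0.10, adjusted p = 0.737) and *Sbsn* (-0.37, adjusted p = 0.521) they were smaller too. The same PFF values enter the interaction and the PFF comparison. *Ccdc117*, *Dnajb1*, *Vapa*, *Josd1* and *Lrrc29* were named for the smallest p of this difference, so that their call follows from the naming rule.

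Genes that are not protein-coding were outside the corrected table. In the uncorrected counts of the 22 PFF mice with batch as a covariate, edgeR called 16 of 2989 such genes (0.535%), 5 higher and 11 lower at 11% O2. *F630040K05Rik*, a lincRNA of chromosome 17, was at 1.28 TPM on average at 21% and 2.10 TPM at 11% O2 (log2 fold change 0.71, adjusted p = 0.00562). *Gm9946*, a lincRNA of chromosome 6, was at 1.26 and 2.84 TPM (1.12, adjusted p = 0.0101), and the unprocessed pseudogene *Gm13340*, whose reads may be shared with its parent copy, at 153 and 124 TPM (-0.31, adjusted p = 0.00541). These 3 genes, those with the smallest p, were named after their values were seen.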

How the results depend on the processing

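The 86 calls in PFF mice fell to 57 on uncorrected counts with no batch term, to 31, 48 and 34 without batch 1, 2 and 3, and to 10, 3 and 5 in each batch alone, where fewer mice were tested. DESeq2 called 116. The fit of all 24 PFF mice, on uncorrected counts with batch as a covariate, called 58, and the same fit of the 22 called 98. Leaving out single mice gave 64 (without replicate 12 at 11% O2) to 99 calls (without replicate 8 at 21% O2), and 50 of the 86 genes were called in all 22 such fits. Over 13 alternatives with all batches, 31 genes were called in each. The difference of response, called for 2.14% of genes, was called for 1.39% on uncorrected counts with batch as a covariate, 1.37% with no filter on low counts (where more genes were tested), 1.03% with all 48 mice and 0.0745% in batch 1 alone, and for 1.7% to 2.63% with single mice left out. For the changes without a stated reason, the cause was not tested.

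*Vegfa* lay between 0.88 and 1.08 and was called under every alternative run, and between 0.91 and 0.96 with single mice left out. *Kdr* lay between 0.85 and 1.16 and was not called only in batch 2 alone (1.16, adjusted p = 0.166), and between 0.93 and 1.00 with single mice left out. No value reversed its sign. With the replicate number as a block, 55 genes were called, 46 of them among the 86, and *Vegfa* was at 0.95 and *Kdr* at 0.98. The paper describes randomisation in matched pairs, but the sources used here do not tie the replicate numbers to those pairs, and the numbers were not taken as a pairing. Over 10 same-numbered pairs the correlation of deviations ran from -0.34 to 0.39, with 5 over 0.1, among them all 4 of batch 3, and 1 mouse correlated best with its own number. Low counts limit genes such as *Pcdh12* and *Vil1*.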
